A study of Sus scrofa with 8 samples.

Results

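The genes described here are the TGF-beta family's 3 ligands (TGFB1, TGFB2, TGFB3), 3 receptors (TGFBR1, TGFBR2, TGFBR3) and 4 latent binding proteins (LTBP1, LTBP2, LTBP3, LTBP4). They were chosen by gene name, and each of the 10 names matched exactly 1 of the 31014 rows of the count table. These genes and the gene lists below were chosen with earlier results of these data known. Their counts and medians, set beside those of all tested genes, are therefore description and do not test for an excess. All 10 were read in every library and passed the filter on low counts, as did 14938 genes in all. RNA of heart tissue from wild-type (WT) miniature pigs had been sequenced after doxorubicin (5 libraries) or vehicle (3 libraries). Doxorubicin is an anthracycline used against cancer that is known to injure the heart. The labels give neither the part of the heart, the dose and schedule, nor the age and sex of the animals. They do not say that libraries came from separate animals, so a p-value reflects the spread between these libraries, which may be technical. The comparison asks which of the 10 genes differed in hearts of pigs given doxorubicin from hearts of pigs given vehicle.

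TGF-beta is secreted in a latent form, in which the mature dimer stays wrapped in its own propeptide. The propeptide is usually bound to a latent TGF-beta binding protein (LTBP), which anchors the complex to fibronectin and fibrillin in the matrix until integrins or proteases release the ligand. Released ligand binds the type II receptor, which activates the type I receptor, and SMAD proteins carry the signal to the nucleus. In the heart the pathway is known for turning fibroblasts into matrix-producing myofibroblasts.

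Library totals were 17442566 to 18267178 counts after doxorubicin and 16105242 to 17195538 in vehicle. Doxorubicin 5 stood apart: its mean Spearman correlation with libraries of its group was 0.922. In doxorubicin 1 to 4 that mean was 0.952 to 0.965, and in vehicle 0.982 to 0.986. Genes of mitochondrial DNA took 8.70% to 16.6% of counts after doxorubicin and 23.6% to 27.5% in vehicle. Of 9 cardiomyocyte markers tested, 0 rose and 2 fell, where 13.6% of all tested genes rose and 11.3% fell by the test given below. The summed level of these markers was 35586 to 64254 CPM after doxorubicin and 64473 to 69388 CPM in vehicle. CPM are counts scaled to the TMM-adjusted library size, so they compare 1 gene between libraries and not different genes. In a tissue library, fewer cells of a type and less RNA per cell cannot be told apart.

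After doxorubicin all 3 ligands and 2 of the 4 latent binders rose, and none of the 3 receptors passed the test. LTBP2 rose 30.7-fold, LTBP3 6.32-fold, TGFB3 3.76-fold, TGFB2 2.67-fold and TGFB1 1.65-fold. Thus 5 of the 10 genes rose and 0 fell by edgeR's quasi-likelihood test at a Benjamini-Hochberg adjusted p under 0.05, where 24.9% of all tested genes passed, 13.6% higher and 11.3% lower in doxorubicin. No further member had an unadjusted p under 0.05, which 40.8% of all tested genes had, and of the members DESeq2 called 5 higher and 0 lower and limma voom with quality weights 5 higher and 2 lower. Of all called genes 54.7% were higher under TMM scaling and 89.1% with library size as the only scaling, which moved the median of all genes to 0.38 on the log2 scale. The median log2 fold change was 0.88 over the 10 genes and 0.02 over all tested genes. For the same 5 genes every doxorubicin library lay above every vehicle library, which was so for 17.1% of all tested genes (34.9% counting either direction). The count of 5 fell to 1, LTBP2, without any 1 vehicle library, and to 3 without doxorubicin 3.

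**Figure D1:**
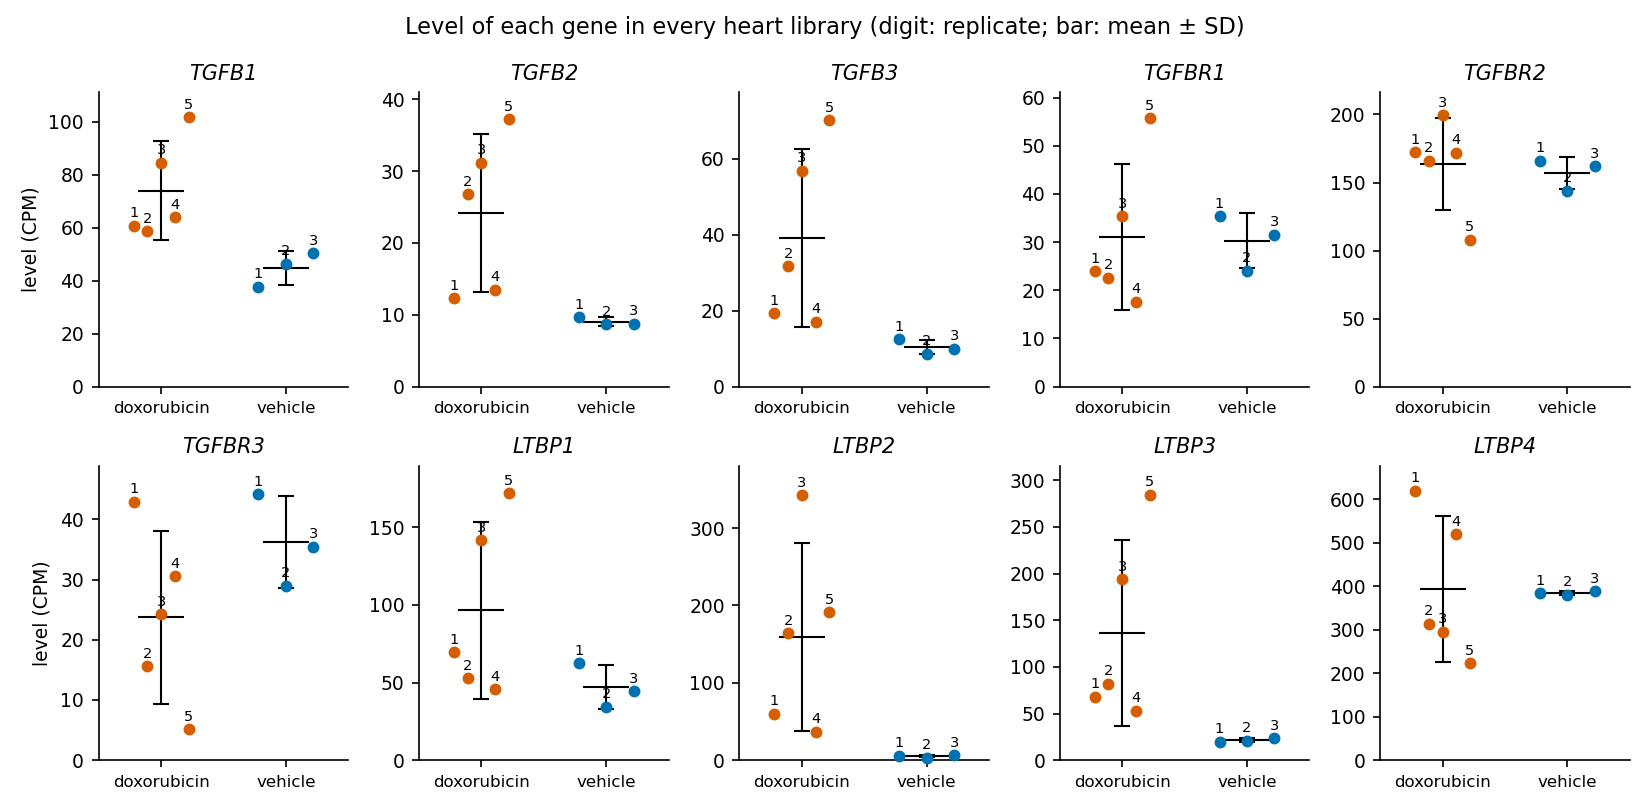
Level in CPM (linear axis from 0) of each of the 10 genes in the 5 doxorubicin libraries (left, orange) and the 3 vehicle libraries (right, blue), with the replicate number beside each point and the mean ± SD as a bar. TGFB1, TGFB2, TGFB3, LTBP2 and LTBP3 have every doxorubicin point above every vehicle point, while LTBP4 spreads from 223 to 620 CPM after doxorubicin around a vehicle group of 381 to 389 CPM.

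TGFB1, the ligand most studied in fibrosis, was at 60.8, 58.8, 84.5, 64.0 and 102 CPM in doxorubicin 1 to 5, against 37.8, 46.4 and 50.5 CPM in vehicle 1 to 3. The groups did not overlap, and doxorubicin 3 and 5 were the highest libraries. TGFB1 averaged 74.0 ± 18.6 CPM after doxorubicin and 44.9 ± 6.48 CPM in vehicle (SD, n = 5 and n = 3). Its log2 fold change was 0.72 (SE 0.22, 95% interval 0.23 to 1.21; edgeR adjusted p = 0.0389). This rise was the smallest of those that passed and ranked 3237th of the 14938 tested genes. TGFB1 lies among many genes, with 40 protein-coding genes within 500 kb against a median of 12 for tested genes. With each library's trend with that gene density removed, its log2 fold change was 0.36 and it did not pass (edgeR adjusted p = 0.212).

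TGFB2, a ligand needed for heart valve and outflow tract development, was at 12.3, 26.8, 31.2, 13.5 and 37.3 CPM in doxorubicin 1 to 5, against 9.72, 8.74 and 8.75 CPM in vehicle 1 to 3. Every doxorubicin library was above vehicle, with doxorubicin 1 and 4 closest to it. The log2 fold change was 1.42 (SE 0.38, 95% interval 0.58 to 2.26; edgeR adjusted p = 0.0253). TGFB3, which shares receptors with the other two ligands, was at 19.4, 31.7, 56.9, 17.2 and 70.2 CPM in doxorubicin 1 to 5, against 12.4, 8.74 and 10.03 CPM in vehicle 1 to 3. Again doxorubicin 3 and 5 were highest and doxorubicin 1 and 4 lowest within their group. The log2 fold change of TGFB3 was 1.91 (SE 0.49, 95% interval 0.82 to 3.003; edgeR adjusted p = 0.0226). Without doxorubicin 5 the log2 fold changes of TGFB1, TGFB2 and TGFB3 were 0.58, 1.21 and 1.60, and all 3 still passed (edgeR adjusted p = 0.0258, 0.0245 and 0.0239).

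Levels of different genes were set side by side only per length, as CPM per kb of the gene length in the deposited table. On that scale TGFB1 was the main ligand in each library, at 61.6% to 79.0% of the 3 ligands' summed level after doxorubicin and 75.4% to 83.3% in vehicle. TGFB3 made up 15.4% to 30.8% of the summed level after doxorubicin and 11.4% to 18.0% in vehicle, and TGFB2 5.30% to 10.03% after doxorubicin and 4.90% to 6.59% in vehicle. These shares overlapped between the groups, because doxorubicin 1 and 4 kept a makeup within the vehicle range for TGFB1 and TGFB3. The summed level of the ligands was 28.7, 33.0, 49.4, 29.4 and 59.9 CPM per kb in doxorubicin 1 to 5, against 18.2, 20.2 and 22.01 CPM per kb in vehicle 1 to 3.

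**Figure D2:**
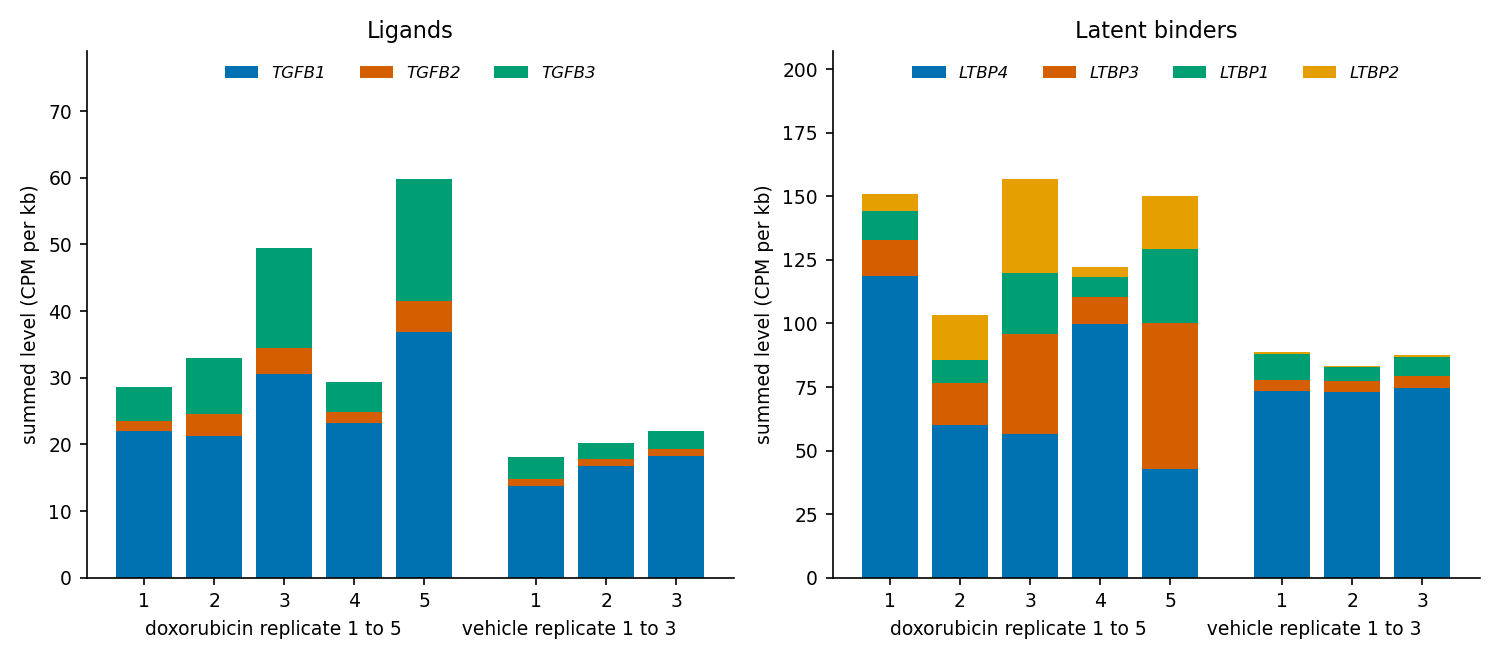
Summed level in CPM per kb of gene length (linear axis from 0) of the 3 ligands (left panel) and the 4 latent binders (right panel), stacked by gene, in each doxorubicin library and each vehicle library. TGFB1 is the largest ligand segment throughout, and LTBP2 is a thin segment of at most 0.67 CPM per kb in vehicle but 4.02 to 37.3 CPM per kb after doxorubicin.

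None of the receptors passed the test, and their intervals still allow changes in either direction. TGFBR2, the type II receptor that binds ligand first, was at 172, 166, 200, 172 and 108 CPM in doxorubicin 1 to 5, against 166, 144 and 162 CPM in vehicle 1 to 3. The lowest library was doxorubicin 5, while the other doxorubicin libraries lay above the vehicle range, doxorubicin 2 only just. Its log2 fold change was 0.06 (SE 0.20, 95% interval -0.40 to 0.51; edgeR adjusted p = 0.856). TGFBR1, the type I receptor kinase (ALK5) that phosphorylates SMAD2 and SMAD3, was at 23.96, 22.6, 35.4, 17.6 and 55.7 CPM in doxorubicin 1 to 5, against 35.4, 24.1 and 31.6 CPM in vehicle 1 to 3. Doxorubicin 5 was above the vehicle range, doxorubicin 1, 2 and 4 were below it, and doxorubicin 3 was level with its top. Its log2 fold change was 0.03 (SE 0.35, 95% interval -0.74 to 0.81; edgeR adjusted p = 0.951). In limma voom with quality weights, which weighs libraries unequally, TGFBR1 was called lower (log2 fold change -0.44, adjusted p = 0.0438).

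TGFBR3 (betaglycan), a co-receptor that presents ligand and above all TGFB2 to the type II receptor, was at 42.9, 15.7, 24.2, 30.6 and 5.15 CPM in doxorubicin 1 to 5, against 44.2, 29.0 and 35.5 CPM in vehicle 1 to 3. It had the widest relative spread of the 3 receptors, 8.34-fold between the highest and the lowest doxorubicin library. Doxorubicin 1 and 4 lay within the vehicle range and the other doxorubicin libraries below it. The log2 fold change was -0.61 (SE 0.51, 95% interval -1.76 to 0.53; edgeR adjusted p = 0.396), and limma voom with quality weights called TGFBR3 lower (log2 fold change -0.76, adjusted p = 0.0365). Per length, TGFBR2 made up 70.9% to 85.9% of the receptors' summed level after doxorubicin and 74.8% to 79.4% in vehicle. In doxorubicin 5 TGFBR1 reached 26.8% and TGFBR3 fell to 2.30%, against 9.73% to 11.7% and 10.9% to 13.5% in vehicle. The log2 ratio of TGFBR1 to TGFBR2 per length was -1.41 in doxorubicin 5, -3.73 to -2.95 in the other doxorubicin libraries and -3.03 to -2.68 in vehicle.

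Among the latent binders the changes ran from a large rise of LTBP2 to a near-zero fold change of LTBP4. LTBP2, the member known for binding fibrillin-1 without binding latent TGF-beta, was at 60.2, 164, 342, 36.9 and 192 CPM in doxorubicin 1 to 5, against 5.93, 3.40 and 6.19 CPM in vehicle 1 to 3. These were 712 to 7334 reads after doxorubicin and 49 to 87 reads in vehicle, so the lowest doxorubicin library was well clear of the highest vehicle library. LTBP2 averaged 159 ± 122 CPM after doxorubicin and 5.17 ± 1.54 CPM in vehicle (SD, n = 5 and n = 3). The log2 fold change was 4.94 (SE 0.80, 95% interval 3.16 to 6.73; edgeR adjusted p = 0.00694), the 86th highest of all 14938 tested genes. LTBP2 passed in all 18 alternative fits, with an adjusted p of at most 0.0434, and limma voom with quality weights put its log2 fold change at 4.20. Its highest library was doxorubicin 3, unlike LTBP1 and LTBP3, which were highest in doxorubicin 5.

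LTBP3, which binds latent TGF-beta and is known for its part in bone and tooth formation, was at 68.2, 81.9, 194, 52.9 and 285 CPM in doxorubicin 1 to 5, against 20.003, 20.9 and 23.7 CPM in vehicle 1 to 3. Every doxorubicin library had more than the highest vehicle library, and the vehicle libraries lay close together. LTBP3 averaged 136 ± 99.8 CPM after doxorubicin and 21.5 ± 1.96 CPM in vehicle (SD, n = 5 and n = 3), and its log2 fold change was 2.66 (SE 0.58, 95% interval 1.36 to 3.96; edgeR adjusted p = 0.0142). LTBP3 lies in a gene-dense region too, with 56 protein-coding genes within 500 kb, and with the density trend removed it still passed (log2 fold change 2.10, edgeR adjusted p = 0.0281). Limma voom with quality weights gave the smallest rise of LTBP3, 1.80 on the log2 scale.

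LTBP1, which tethers the latent complex of all 3 ligands to the matrix, was at 69.6, 52.9, 142, 45.9 and 172 CPM in doxorubicin 1 to 5, against 62.6, 34.4 and 44.6 CPM in vehicle 1 to 3. The groups overlapped, since doxorubicin 2 and 4 lay within the vehicle range. Its log2 fold change was 1.03 (SE 0.46; edgeR adjusted p = 0.124, unadjusted p = 0.0509), and no alternative fit called it, with adjusted p from 0.0562 to 0.304 and a log2 fold change of 0.39 in limma voom with quality weights. LTBP4, the member that also guides elastic fibre assembly, was at 620, 314, 296, 521 and 223 CPM in doxorubicin 1 to 5, against 384, 381 and 389 CPM in vehicle 1 to 3. Doxorubicin 1 and 4 were above the vehicle libraries and doxorubicin 2, 3 and 5 below them, so a log2 fold change of 0.04 (SE 0.32, 95% interval -0.69 to 0.76; edgeR adjusted p = 0.944) averaged over libraries on either side. The coefficient of variation of LTBP4 was 42.5% after doxorubicin and 1.09% in vehicle.

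Per length LTBP4 was the main latent binder in vehicle, at 82.9% to 87.6% of the 4 genes' summed level, and after doxorubicin it made up 78.8%, 58.1%, 36.1%, 81.7% and 28.5% in doxorubicin 1 to 5. LTBP3 took 8.75% to 38.4% after doxorubicin and 4.56% to 5.49% in vehicle, and LTBP2 3.29% to 23.7% after doxorubicin and 0.443% to 0.769% in vehicle. In doxorubicin 5 LTBP3, at 57.6 CPM per kb, stood above LTBP4, at 42.7 CPM per kb, while LTBP4 was the higher of the pair in the other 7 libraries. Ratios between genes of 1 library do not depend on how libraries are scaled to each other. The log2 ratio of LTBP2 to LTBP1 was -0.94 to 1.01 after doxorubicin and -4.03 to -3.47 in vehicle, and that of LTBP3 to LTBP1 was 0.24 to 0.996 after doxorubicin and -1.38 to -0.45 in vehicle. Neither pair of ranges overlapped. For LTBP4 to LTBP1 the ranges did overlap, at 0.56 to 3.70 after doxorubicin and 2.81 to 3.66 in vehicle. The summed level of LTBP1, LTBP3 and LTBP4 was 2.16 to 5.04 times that of the 3 ligands after doxorubicin and 3.95 to 4.85 times in vehicle.

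**Figure D3:**
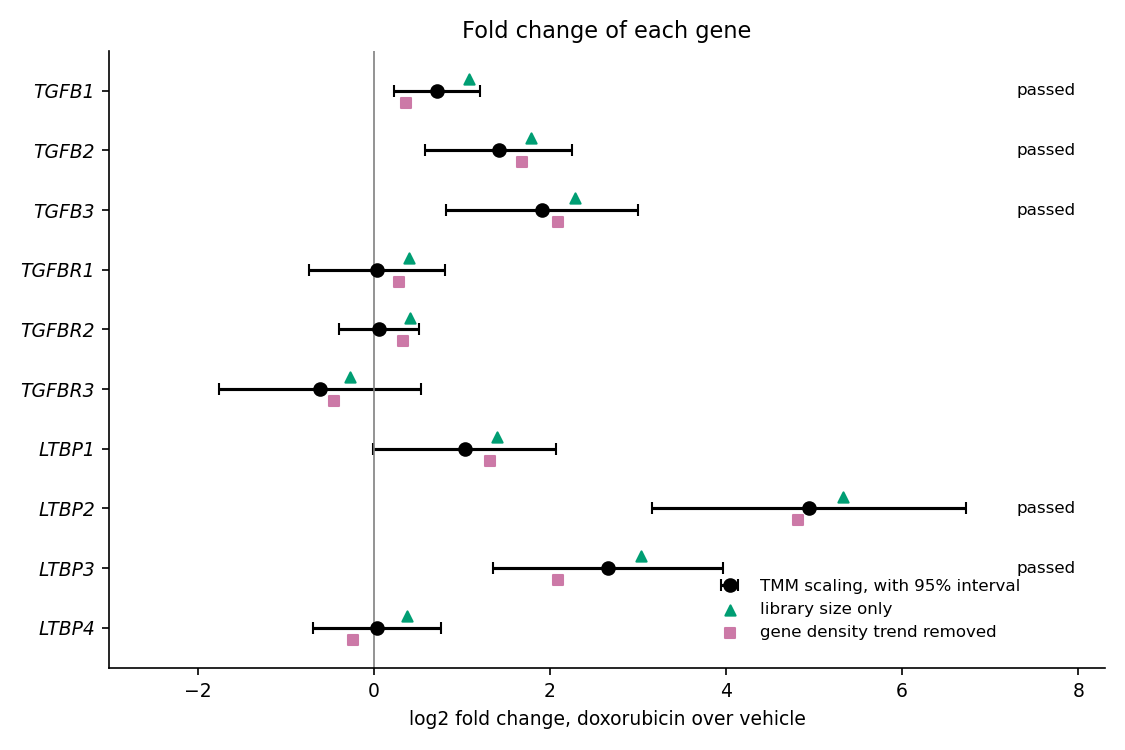
Log2 fold change of each gene, doxorubicin over vehicle, with its 95% interval under TMM scaling (black), with library size as the only scaling (green triangles) and with each library's gene density trend removed (pink squares). LTBP2 is farthest to the right at 4.94, and the intervals of TGFBR1, TGFBR2, TGFBR3, LTBP1 and LTBP4 include 0.

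Ranked by mean level per length, the order after doxorubicin was LTBP4 (75.7 ± 32.2 CPM per kb), TGFBR2 (37.9 ± 7.80), LTBP3 (27.6 ± 20.2), TGFB1 (26.8 ± 6.74), LTBP2 (17.3 ± 13.3), LTBP1 (16.2 ± 9.55), TGFB3 (10.3 ± 6.17), TGFBR1 (5.27 ± 2.58), TGFBR3 (3.73 ± 2.26) and TGFB2 (2.98 ± 1.35 CPM per kb; SD, n = 5). In vehicle it was LTBP4 (73.7 ± 0.804 CPM per kb), TGFBR2 (36.4 ± 2.72), TGFB1 (16.3 ± 2.35), LTBP1 (7.92 ± 2.40), TGFBR3 (5.70 ± 1.20), TGFBR1 (5.15 ± 0.976), LTBP3 (4.36 ± 0.397), TGFB3 (2.73 ± 0.492), TGFB2 (1.12 ± 0.0693) and LTBP2 (0.563 ± 0.168 CPM per kb; SD, n = 3). LTBP2 was the fifth after doxorubicin and last in vehicle, and LTBP3 was the third after doxorubicin and the seventh in vehicle. Neighbours in the vehicle order had separate ranges except LTBP1 with TGFBR3, TGFBR3 with TGFBR1 and TGFBR1 with LTBP3. After doxorubicin all 9 pairs of neighbours had overlapping ranges, so that order holds only for the means.

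On the pig assembly Sscrofa11.1 the 10 genes lie on 8 chromosomes. TGFB1 (chromosome 6, 49332169 to 49348642, minus strand) and LTBP4 (chromosome 6, 48831018 to 48861503, plus strand) are 471 kb apart, and TGFB3 (chromosome 7, 99133873 to 99162239, minus strand) and LTBP2 (chromosome 7, 97744974 to 97852848, minus strand) are 1281 kb apart. The others are TGFB2 (chromosome 10, 8306136 to 8435307), TGFBR1 (chromosome 1, 240842735 to 240918267), TGFBR2 (chromosome 13, 16784370 to 16875828), TGFBR3 (chromosome 4, 125109939 to 125310788), LTBP1 (chromosome 3, 106300748 to 106724538) and LTBP3 (chromosome 2, 6701455 to 6720191). Whether counting used strand is not given in the sources used here, so reads in overlaps with other genes cannot be told apart. LTBP2 shares 1518 bases with ISCA2 on the opposite strand (log2 fold change -0.48, edgeR adjusted p = 0.0645), and TGFB3 shares 6351 bases with IFT43 (0.47, adjusted p = 0.316). Neither of these partners passed. TGFBR3 holds LOC110260383 on the opposite strand, which was lower after doxorubicin (1 to 22 reads, against 26 to 57 reads in vehicle; log2 fold change -2.11, edgeR adjusted p = 0.0465).

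Likeness to other genes was measured as the root mean square difference of log2 CPM, each gene centred on its mean over the 8 libraries, among 13388 other genes with a symbol and a mean of at least 1 CPM. The nearest 2 genes were SORBS3 (0.0804) and MED11 (0.0961) to TGFB1, WFDC1 (0.182) and BMP1 (0.187) to TGFB2, and ACTN1 (0.142) and OLFML2B (0.161) to TGFB3. For the receptors they were MDM1 (0.0872) and TGDS (0.116) to TGFBR1, ARID1B (0.0772) and EEF2K (0.0775) to TGFBR2, and GUCY1A2 (0.1997) and LOC102163687 (0.209) to TGFBR3. For the binders they were ZFP92 (0.151) and SGMS2 (0.175) to LTBP1, ZNF488 (0.444) and SFRP1 (0.487) to LTBP2, MXRA8 (0.132) and P3H3 (0.157) to LTBP3, and AQP1 (0.145) and SH2D3C (0.15004) to LTBP4. No other member was among the 2 nearest genes of any member. The closest pair of members was TGFB2 with TGFB3, at 0.308. TGFB2 ranked 55th among the genes nearest to TGFB3, and TGFB3 ranked 124th among those nearest to TGFB2.

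**Figure D4:**
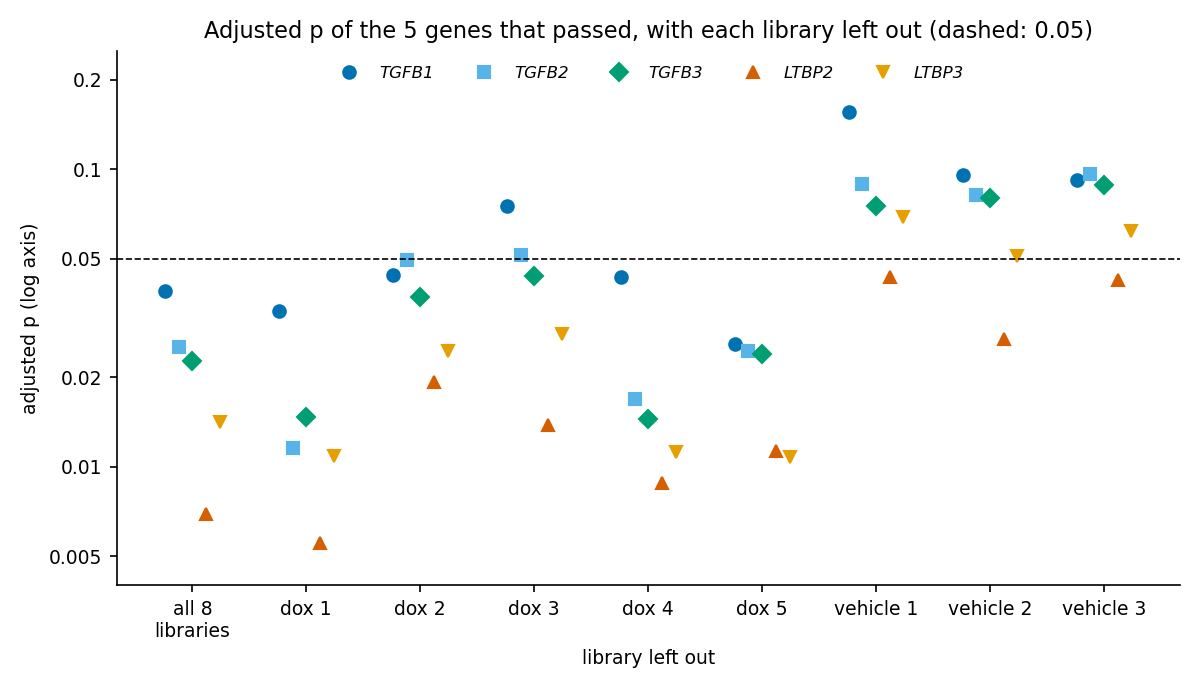
Adjusted p (edgeR quasi-likelihood test, log axis, dashed line at 0.05) of the 5 genes that passed with all 8 libraries, with each library left out in turn. LTBP2 stays under the line throughout, at most 0.0434, while the other genes lie above it without any 1 vehicle library, from 0.0511 for LTBP3 without vehicle 2 to 0.156 for TGFB1 without vehicle 1.

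Genes that store and release latent TGF-beta mostly had positive fold changes. Of 24 tested, 11 rose, 1 fell and 12 did not pass, with a median log2 fold change of 0.97 against 0.02 over all tested genes, of which 13.6% rose and 11.3% fell. Its 12 calls became 2, 4 or 1 without vehicle 1, vehicle 2 or vehicle 3, and 8 without doxorubicin 3. ADAMTSL2, which binds LTBP1 and fibrillin-1, averaged 20.2 ± 7.58 CPM after doxorubicin and 3.81 ± 0.383 CPM in vehicle (log2 fold change 2.40, SE 0.35, edgeR adjusted p = 0.00563). FBN1, the fibrillin that holds LTBPs in microfibrils, averaged 223 ± 40.4 CPM after doxorubicin and 106 ± 20.6 CPM in vehicle (1.07, SE 0.21, adjusted p = 0.0108). FURIN, the protease that cuts the ligand from its propeptide, was at 53.8 to 79.7 CPM after doxorubicin and 42.3 to 44.2 CPM in vehicle (0.74, SE 0.16, adjusted p = 0.0137). EMILIN1, an inhibitor of TGF-beta precursor processing, was at 26.4 to 158 CPM after doxorubicin and 6.83 to 11.4 CPM in vehicle (2.85, SE 0.64, adjusted p = 0.0151), and at 2.17 on the log2 scale without doxorubicin 5. The member that fell was ITGB6, the partner of ITGAV in an integrin that activates TGFB1 and TGFB3, at 16.3 to 58.3 CPM after doxorubicin and 110 to 125 CPM in vehicle (-1.54, SE 0.37, adjusted p = 0.0184).

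Co-receptors and receptor regulators moved both ways, with 2 higher, 2 lower and 5 that did not pass of 9 and a median of 0.27, where 24.9% of all tested genes passed. Its 4 calls became 1 without any 1 vehicle library and 2 without doxorubicin 2 or doxorubicin 3. BAMBI, a decoy receptor without a kinase, averaged 9.44 ± 6.58 CPM after doxorubicin and 1.72 ± 0.887 CPM in vehicle (log2 fold change 2.45, SE 0.64, edgeR adjusted p = 0.0247). CD109, a membrane protein that restrains TGF-beta signalling, averaged 24.8 ± 12.9 CPM after doxorubicin and 9.24 ± 3.96 CPM in vehicle (1.42, SE 0.45, adjusted p = 0.0453). The groups overlapped for CD109, with doxorubicin 4 (12.4 CPM) below vehicle 1 (13.6 CPM). ZFYVE9 (SARA), which brings SMAD2 and SMAD3 to the receptor, fell by 0.83 on the log2 scale (SE 0.15, adjusted p = 0.00829), and STRAP, a receptor-associated inhibitor, fell by 0.49 (SE 0.15, adjusted p = 0.0390). LRG1 (1.43, adjusted p = 0.0592), ACVRL1 (0.38, 0.151), ENG (0.27, 0.354), FKBP1A (0.24, 0.443) and TGFBRAP1 (0.19, 0.522) did not pass, given as log2 fold change and adjusted p. Of the named genes that passed, STRAP and CD109 did so in the fewest alternatives: STRAP passed without doxorubicin 5 but not without any other single library, and with library size as the only scaling its log2 fold change was -0.14 (adjusted p = 0.493).

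SMADs and their regulators had 3 higher, 5 lower and 7 that did not pass of 15, with a median of 0.20. Over all tested genes 13.6% were higher and 11.3% lower. Its 8 calls became 5 without any 1 vehicle library. SMAD4, the partner of all receptor-activated SMADs, averaged 70.6 ± 4.22 CPM after doxorubicin and 115 ± 2.82 CPM in vehicle (log2 fold change -0.70, SE 0.12, edgeR adjusted p = 0.00807). The ubiquitin ligase WWP1 (-1.30, SE 0.18, adjusted p = 0.00525), the SMAD phosphatase PPM1A (-1.07, SE 0.17, adjusted p = 0.00666) and the deubiquitinase USP15, which keeps the type I receptor stable (-1.17, SE 0.14, adjusted p = 0.00437), fell as well. The inhibitors SMAD7 (0.74, SE 0.18, adjusted p = 0.0198) and SMURF1 (1.34, SE 0.24, adjusted p = 0.00829) rose. PMEPA1, an induced inhibitor of SMAD2 and SMAD3, was at 49.1 to 257 CPM after doxorubicin and 23.4 to 34.5 CPM in vehicle (2.35, SE 0.59, adjusted p = 0.0216). With library size as the only scaling this list had 6 higher and 3 lower genes and SMAD4 did not pass (adjusted p = 0.0652).

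Extracellular proteins that bind TGF-beta had 3 higher, 1 lower and 2 that did not pass of 6, with a median of 1.04, where 13.6% of all tested genes were higher and 11.3% lower. Its 4 calls became 0 without vehicle 1 or vehicle 3 and 1 without vehicle 2. BGN and FMOD, small leucine-rich proteoglycans, averaged 848 ± 1000 CPM and 513 ± 634 CPM after doxorubicin and 50.3 ± 17.05 CPM and 15.9 ± 13.6 CPM in vehicle. Their log2 fold changes were 4.07 (SE 1.09, edgeR adjusted p = 0.0274) and 5.01 (SE 1.40, adjusted p = 0.0319), and without doxorubicin 5 they were 3.11 and 4.01, where FMOD did not pass (adjusted p = 0.0614). FMOD did not pass without doxorubicin 3 either (adjusted p = 0.0513). The groups overlapped for FMOD, with doxorubicin 4 (27.3 CPM) below vehicle 1 (31.5 CPM). Without vehicle 1, vehicle 2 or vehicle 3 neither gene passed, with adjusted p from 0.0733 to 0.109 for FMOD, at 5.97 without vehicle 1, and from 0.0887 to 0.0997 for BGN. VASN, a membrane protein that traps TGF-beta, rose (1.59, SE 0.41, adjusted p = 0.0238), and A2M, a protease inhibitor of plasma that also binds it, fell (-1.97, SE 0.41, adjusted p = 0.0119). DCN (-0.04, adjusted p = 0.951) and ASPN (0.49, adjusted p = 0.464) did not pass, and limma voom with quality weights called DCN lower (-0.83, adjusted p = 0.0339).

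Genes that TGF-beta is known to induce had the highest median of these lists, 3.04, with 13 higher, 0 lower and 11 that did not pass of 24 tested. Over all tested genes 13.6% were higher and 11.3% lower. COL5A1, a fibrillar collagen chain, averaged 278 ± 202 CPM after doxorubicin and 22.3 ± 2.09 CPM in vehicle (log2 fold change 3.64, SE 0.60, edgeR adjusted p = 0.00715). ELN, elastin, was at 68.6 to 268 CPM after doxorubicin and 18.3 to 35.9 CPM in vehicle (2.74, SE 0.52, adjusted p = 0.00952). JUNB, an AP-1 transcription factor, was at 13.1 to 54.2 CPM after doxorubicin and 5.33 to 8.53 CPM in vehicle (2.38, SE 0.48, adjusted p = 0.0114). CCN2 (CTGF in the deposited table), a matricellular protein, was at 152, 383, 733, 110 and 775 CPM in doxorubicin 1 to 5, against 52.9, 38.2 and 52.8 CPM in vehicle 1 to 3 (3.17, SE 0.69, adjusted p = 0.0142). These 4 genes were each lowest in doxorubicin 1 or 4 and highest in doxorubicin 3 or 5, as were TGFB2 and TGFB3. On the first principal component of all genes (58.2% of the variance) doxorubicin 3 and 5 were highest, at 65.5 and 102. Doxorubicin 1 and 4 were the lowest of their group, at -1.36 and 0.713, and vehicle lay at -70.8 to -62.6. This order of the doxorubicin libraries was thus not particular to these genes. The list held FN1 and THBS1 in common with the storage list, COL1A1 and COL1A2 in common with the fibroblast markers, and POSTN and CTHRC1 in common with the myofibroblast markers. Without vehicle 1, vehicle 2 or vehicle 3 it had 2, 3 or 1 higher genes. Of the 24 genes named from the 5 lists that passed, 8 did so with each library left out in turn: ADAMTSL2, ZFYVE9, SMAD4, SMURF1, WWP1, PPM1A, USP15 and COL5A1.

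**Figure D5:**
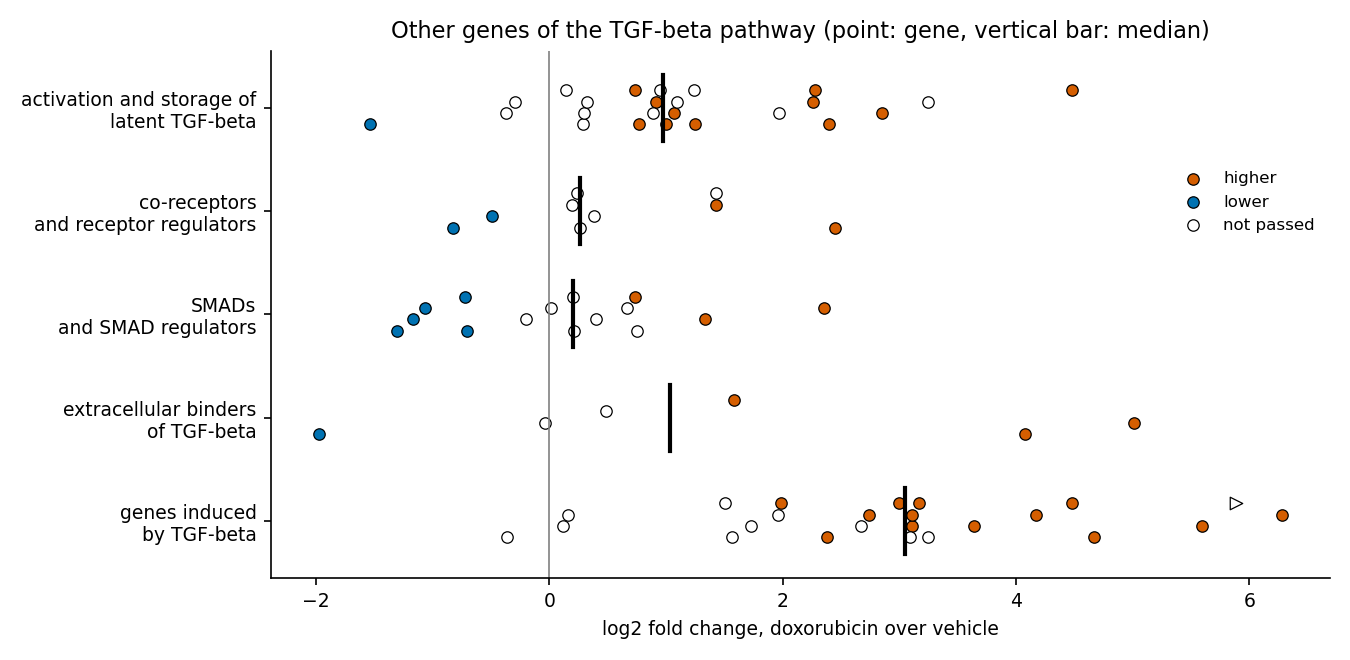
Log2 fold change, doxorubicin over vehicle, of each tested gene of the other 5 lists of the pathway, filled orange where it rose, filled blue where it fell and open where it did not pass, with the list's median as a vertical bar. The medians run from 0.20 for SMADs and their regulators to 3.04 for induced genes. The open triangle is COMP, drawn at a bound of 5.89 because the vehicle libraries had 0 of its reads. Unlike the other points, that bound uses library totals without TMM factors, and the triangle does not show whether COMP passed.

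Markers of other cells moved in the same libraries, and their part in the values above was not tested. Their counts stand beside 13.6% higher and 11.3% lower over all tested genes. The fibroblast list had 2 higher (COL1A1 and LUM), 1 lower (PDGFRA) and 4 that did not pass of 7, with a summed level of 1317 to 14931 CPM after doxorubicin and 655 to 794 CPM in vehicle. In doxorubicin 5 most of that sum was COL1A1 (6607 CPM) and COL1A2 (7563 CPM), against 96.6 to 141 CPM and 205 to 283 CPM in vehicle. The myofibroblast list had 4 higher of 5, at 88.3 to 4822 CPM after doxorubicin and 59.4 to 76.6 CPM in vehicle, and POSTN alone was at 4544 CPM in doxorubicin 5. By both sums doxorubicin 5 was the highest library and doxorubicin 4 the lowest of its group. Of 9 macrophage markers 5 rose (248 to 754 CPM after doxorubicin, 147 to 199 CPM in vehicle), and of 6 T and NK cell markers 5 rose (22.05 to 37.2 CPM after doxorubicin, 6.50 to 10.7 CPM in vehicle). Platelets, a known store of TGFB1, had 1 of 3 tested markers higher, at a summed 6.59 to 8.87 CPM after doxorubicin and 2.57 to 4.37 CPM in vehicle.

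Markers of vessels, fat and other cells follow, to be read beside 13.6% higher and 11.3% lower over all tested genes. Smooth muscle and pericyte markers had 3 higher and 1 lower of 8 (603 to 1117 CPM after doxorubicin, 678 to 1130 CPM in vehicle), and endothelial markers had 0 higher and 1 lower of 9 (549.7 to 1589 CPM after doxorubicin, 1262 to 1633 CPM in vehicle). Adipocyte markers had 2 lower of 3 tested (37.2 to 143 CPM after doxorubicin, 258 to 410 CPM in vehicle). None of 3 mast cell, 4 Schwann cell and 1 mesothelial marker tested passed, at 5.90 to 26.4, 33.1 to 48.8 and 2.05 to 32.1 CPM after doxorubicin and 16.5 to 18.6, 35.8 to 50.4 and 3.61 to 5.404 CPM in vehicle. All 4 B cell markers were under the filter on low counts. CPA3, a mast cell protease, had 0 reads in all 8 libraries.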

How the data were processed

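The authors deposited raw counts per gene for 8 heart libraries, as whole numbers whose totals differ between libraries. Per the labels' protocols, total RNA was column-purified and libraries were made with a SMARTER mRNA kit. No source used here names the aligner, the counter or the strand setting. Coordinates are those of the table, and all 30335 gene IDs that matched the RefSeq table of Sscrofa11.1 had the same start and end there.

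Counts were fitted in R 4.3.3 with edgeR 4.0.16 (filterByExpr with minimum count 10 and minimum total 15, TMM, robust quasi-likelihood test, treatment as the only term), on the whole table. P-values are two-sided and Benjamini-Hochberg adjusted over the 14938 tested genes, with 0.05 as the threshold. SE is the absolute log2 fold change over the root of F, and the interval uses the fit's degrees of freedom. Length is that of the deposited table. A fold against 0 vehicle reads was bounded with 3 counts summed over the group and covers counting error only. That bound used library totals without TMM factors. Alternatives were RLE factors, library size only, TMM leaving out haemoglobin, mitochondrial and the top 20 genes, a filter of CPM above 1 in 3 or more libraries, no filter at all, voom with quality weights (limma 3.58.1), DESeq2 1.42.0, the replicate number as a block, removal of each library's lowess trend (span 0.3) with gene density or length, and each library left out. The fit was tested on simulated data in which each gene had the same dispersion in both groups. That simulation cannot show how the fit does where the spread differs between groups.

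The members and lists were chosen with earlier results of these data known. The genes named are all 10 members, up to 4 with the smallest p in each direction of each pathway list (all genes of lists with 9 or fewer tested), and the 2 genes most like each member. Genes that overlap a member, marker genes and those in the last section were named after their values were seen. One overlapping gene is not reported here.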

Additional observations from a re-analysis of the deposited data

Results flagged for a closer look

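Among 41 genes examined (the 10 members and 31 named pathway genes), 5 had a doxorubicin library far from the rest of its group, by a gap of more than 0.71 of the group's range, and none of the 5 was a member. Chance alone flags about 1 in 20 such groups. The library was doxorubicin 5 in each case. It was the highest for EMILIN1 (158 CPM, others 26.4 to 58.8 CPM), FKBP1A (448 CPM, others 274 to 291 CPM) and ASPN (362 CPM, others 91.6 to 120 CPM). It was the lowest for FURIN (53.8 CPM, others 73.2 to 79.7 CPM) and ACVRL1 (24.4 CPM, others 35.2 to 38.7 CPM).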

How the results depend on the processing

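With no library left out, the number of members called was 5 in 8 of the 10 alternatives. It was 7 in limma voom with quality weights and 4 with the gene density trend removed. In 1 of the 8, the replicate block, the treatment effect rests on replicates 1 to 3, since 4 and 5 occur only after doxorubicin. With 1 library left out the number of members called ranged between 1 and 5. The call count over all genes was 3714, 8087 in limma voom with quality weights, and 649 (without vehicle 1) to 4737 (without doxorubicin 5) with 1 library left out. With 3 vehicle libraries, leaving 1 out leaves 2, which limits what these fits can call. All following values are log2 fold changes. With the gene density trend removed TGFB1 was 0.36, LTBP4 -0.24, ENG -0.0055 and DCN 0.21. In limma voom with quality weights TGFBR1 was -0.44, TGFBR3 -0.76 and LTBP4 -0.012. With library size only DCN was 0.32. With 1 library left out the ranges were 0.58 to 0.81 for TGFB1, 1.21 to 1.58 for TGFB2, 1.60 to 2.10 for TGFB3, -0.28 to 0.18 for TGFBR1, -0.021 to 0.18 for TGFBR2, -0.94 to -0.35 for TGFBR3, 0.72 to 1.28 for LTBP1, 4.46 to 5.20 for LTBP2, 2.21 to 2.87 for LTBP3, -0.19 to 0.19 for LTBP4, -0.37 to 0.17 for DCN and -0.11 to 0.63 for ASPN. The cause of these shifts was not tested.

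Replicate numbers 1 to 3 occur in both groups. Deviations of same-numbered libraries correlated at 0.0425, 0.00205 and -0.0031, which shows no pairing by number. Without values for other pairs beside them, these correlations cannot exclude a weak pairing. With the replicate block 3638 genes and 5 members were called, TGFBR1 was -0.16 and ASPN -0.070. In that fit doxorubicin 4 and 5 have no vehicle library of their number, so they do not add to the treatment effect.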

Other observations

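Further genes of the storage list lie outside the naming rule and were chosen after their values were seen. The matrix proteases MMP2 (log2 fold change 2.28, edgeR adjusted p = 0.0199), MMP14 (2.26, adjusted p = 0.0414) and BMP1 (1.25, adjusted p = 0.0363), which can release the latent complex, rose. So did the plasminogen activators PLAT (1.002, adjusted p = 0.0258) and PLAU (0.92, adjusted p = 0.0431). MMP2 was at 888 CPM in doxorubicin 5, 151 to 332 CPM in the other doxorubicin libraries and at most 78.8 CPM in vehicle. MMP14 was at 260 CPM in doxorubicin 5, 33.1 to 75.8 CPM in the other doxorubicin libraries and at most 23.7 CPM in vehicle. How far the rises of MMP2 and MMP14 rest on doxorubicin 5 was not tested. LRRC32 (GARP), which holds latent TGF-beta on cell surfaces, rose to 37.8 ± 9.04 CPM in doxorubicin hearts, against 22.2 ± 0.963 CPM in vehicle hearts (adjusted p = 0.0227). NRROS, its counterpart on myeloid cells, averaged 7.71 ± 1.75 CPM after doxorubicin and 9.44 ± 0.475 CPM in vehicle (-0.29, adjusted p = 0.363). TGM2, which crosslinks latent complexes to the matrix (0.95, adjusted p = 0.0521), THBS1, an activator (3.24, adjusted p = 0.0566), and the integrin subunit ITGB3 (0.89, adjusted p = 0.0536) did not pass. The integrin subunits ITGAV (0.32, adjusted p = 0.523), ITGB1 (0.30, 0.538), ITGB5 (0.29, 0.253) and ITGB8 (-0.37, 0.448) did not pass either. Nor did FBLN5 (0.14, adjusted p = 0.536), MMP9 (1.97, 0.270), FBN2 (1.24, 0.186) and EFEMP2 (1.10, 0.0671). FN1 rose (4.48, adjusted p = 0.0434), though doxorubicin 4 (206 CPM) lay below vehicle 1 (210 CPM).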
